A study of Mus musculus with 8 samples.

Results

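Cholesterol synthesis and its sterol control were examined in liver as 29 genes: 19 enzymes from acetoacetyl-CoA to cholesterol, and 10 regulators, carriers and acceptors of sterol. The genes were chosen by function, with earlier results of these data known. A gene's value was the mean, on the log2 scale, of all probe sets annotated to it alone. Of the 29 genes, 27 had such a probe set (62 probe sets in all), among 18193 genes on the array; Acat2 and Soat2 had none and were not analysed here. Total liver RNA of 8 young adult male mice, singly housed for 10 days under 14 h of light and 10 h of dark, was hybridized to 1 Affymetrix mouse array per animal. The control livers were txnrd1 cond/+ albCre0 (animals 70, 71, 80 and 82), with 1 conditional-null allele of the thioredoxin reductase gene txnrd1 and no Cre. The experimental livers were txnrd1 cond/- albCre1 (animals 69, 72, 73 and 81), with a conditional-null allele opposite a null allele and a Cre transgene that is driven by the albumin promoter; these are called txnrd1-/- livers below because hepatocytes convert the conditional allele. Both groups carried the conditional allele. Non-hepatocytic cells of the txnrd1-/- livers keep it unconverted, and the groups differ by the null allele and the transgene as well as by hepatocytic Txnrd1. Each animal was 1 array, so p-values set the genotype difference against the spread between animals, which cannot be told apart from that between arrays.

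Cholesterol is built from acetyl-CoA by way of mevalonate, isoprenoid pyrophosphates, squalene and lanosterol. When sterol in the endoplasmic reticulum is low, Scap escorts the transcription factor SREBP-2, the product of Srebf2, to the Golgi for cleavage, and the freed factor activates nearly all genes of the pathway. When sterol is plentiful, Insig1 and Insig2 hold Scap back. SREBP factors bind sterol regulatory elements and act with NF-Y, which binds CCAAT boxes, and with Sp1, which binds GC boxes. Liver is a main site of this synthesis, and the pathway draws on NADPH at several steps.

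The start-site windows of the genes were read for these motifs, because most enzymes were lowest in the same animal of each genotype, as described below. RefSeq windows of 300 bases (250 before to 50 after a start site, GRCm38.p6) were found for 22 of the 29 genes, 28 windows in all; Fdps, Fdft1, Sqle, Stard4, Npc1, Soat2 and Scarb1 had no entry. On either strand, CCAAT stood in 20 of 28 windows (71.4%) against 37.4% of all 32851 windows, and GGGCGG in 23 (82.1%) against 35.7%. The median GC content was 61.8% in these windows and 52.7% in all windows, and its part in the GC-box share was not tested. The letters TCACNCCAC, a core of sterol regulatory elements, stood in 1 window (3.57%) against 1.24% of all, that of Hmgcs1, 137 bases upstream of the start site. TGACNNNGC, a core of the antioxidant response elements bound by Nrf2, stood in 4 windows (14.3%) against 12.4% of all. These shares describe letters in short windows and not bound sites.

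The windows of 3 enzymes whose level varied most between animals, and of Insig2, which ran opposite to them, are shown 5′ to 3′ on the gene's strand with CCAAT boxes (read on either strand as CCAAT or ATTGG) and the sterol element core in capitals. Hmgcs1 lies at chr13:119690101-119690400 on the plus strand, Idi1 at chr13:8885356-8885655 on the plus strand, Cyp51 at chr5:4104648-4104947 on the minus strand and the Insig2 window, the only one of 3 for that gene with a CCAAT box, at chr1:121332540-121332839 on the minus strand. Sqle, which varied most of all, had no entry.
Hmgcs1: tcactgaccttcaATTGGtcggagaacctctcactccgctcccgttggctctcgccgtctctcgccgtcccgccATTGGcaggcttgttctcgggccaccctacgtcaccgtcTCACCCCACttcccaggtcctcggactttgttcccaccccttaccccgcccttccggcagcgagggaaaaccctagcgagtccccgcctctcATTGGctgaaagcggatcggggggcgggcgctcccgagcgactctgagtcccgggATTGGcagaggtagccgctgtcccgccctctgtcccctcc
Idi1: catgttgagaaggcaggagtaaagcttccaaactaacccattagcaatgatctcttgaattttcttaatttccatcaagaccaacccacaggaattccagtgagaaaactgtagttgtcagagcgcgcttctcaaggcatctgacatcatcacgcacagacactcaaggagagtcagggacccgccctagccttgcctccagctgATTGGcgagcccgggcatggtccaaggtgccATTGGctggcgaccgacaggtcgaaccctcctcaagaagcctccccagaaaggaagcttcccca
Cyp51: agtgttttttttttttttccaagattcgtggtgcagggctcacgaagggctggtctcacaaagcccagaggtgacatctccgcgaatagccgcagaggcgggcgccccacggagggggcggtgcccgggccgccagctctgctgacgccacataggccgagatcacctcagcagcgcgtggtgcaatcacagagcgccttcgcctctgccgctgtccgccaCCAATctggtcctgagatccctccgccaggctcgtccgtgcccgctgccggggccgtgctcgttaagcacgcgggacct
Insig2: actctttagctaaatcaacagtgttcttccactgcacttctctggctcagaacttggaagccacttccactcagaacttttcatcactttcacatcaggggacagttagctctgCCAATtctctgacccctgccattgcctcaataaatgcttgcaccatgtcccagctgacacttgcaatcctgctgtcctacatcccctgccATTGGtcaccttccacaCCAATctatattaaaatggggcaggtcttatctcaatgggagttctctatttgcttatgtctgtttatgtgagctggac
The Hmgcs1 window held 4 CCAAT boxes and the sterol element core, the Idi1 window 2, the Cyp51 window 1 and the Insig2 window shown 3. The other 2 Insig2 windows held no CCAAT box and 1 GC box each, and the window shown held no GC box.

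The deposited values are ratios to roughly the median of that probe set across all arrays, so that 1 is the middle of the animals; levels cannot be compared between genes, and the tissue cannot be checked by how bright its markers are. The 9 hepatocyte markers measured had medians of 0.966 to 1.08 in the 8 animals, though single markers varied more, Ass1 by 6.92-fold and Tat by 2.64-fold. Medians of the arrays were 0.997 to 0.999. The 3 probe sets of Txnrd1 were not called, and the sources used here do not give their place relative to the deleted part, so they are no check of the genotype.

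Animals 82 (txnrd1 cond/+) and 81 (txnrd1-/-) stood apart from the others, and control animal 80 differed in the opposite direction in part, as given below. Genes that are typically higher in livers of male than of female mice were highest in these animals. Cyp4a12a, a male-typical fatty acid hydroxylase, was 24.0 in animal 82 and 28.5 in animal 81 against 0.218 to 1.72 in the other 6. Elovl3, a male-typical fatty acid elongase, was 12.8 and 8.62 against 0.249 to 1.04. Conversely Hao2, a female-typical hydroxyacid oxidase, was 0.0334 and 0.193 against 0.740 to 1.73 in the other animals. Of 19 male-typical genes 14 were highest of their genotype in both animals, and of 21 female-typical genes 14 were lowest in both; over all genes these shares were 7.53% and 6.9%. The other 6 livers were not uniform. The median over the male-typical genes was 0.48 in control animal 80, against 1.87 in animal 82 and 1.34 in animal 81. In the remaining livers it was 0.915 to 1.10. The female-typical median of animal 80, 1.26, lay near that of animal 70 (1.285). Both lists were drawn up after animals 82 and 81 had been seen to differ, so their counts are descriptions. The treatment protocol in all 8 labels says male, and Xist with 3 genes of the Y chromosome lay between 0.781 and 1.33 in every animal, so no animal stood apart by chromosomal sex.

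Between the genotypes, no sterol gene passed the test. Of the 27 genes, 0 were called by limma (an adjusted p of at most 0.05 with a 1.5-fold difference), against 0.0824% of all genes (15 of 18193; 0.0055% as lower in txnrd1-/- livers), and 0 had an unadjusted p of 0.05 or less, against 2.32% of all genes. No gene separated the 4 control from the 4 txnrd1-/- livers without overlap; array-wide, 0.583% of genes did so as lower and 1.13% as higher in txnrd1-/- livers. All 27 estimates were below 1.5-fold. The estimate was below 0, lower in txnrd1-/- livers, for 20 of 27 genes against 48.9% of all genes, and the median log2 fold change was -0.13, against 0.00 for all genes (quartiles -0.07 and 0.08). Most enzymes shared the same low animals, as given below, so the 20 genes are not 20 separate observations. The lowest unadjusted p was 0.060 (Scarb1), and the lowest in an exact 2-sided permutation test of 70 assignments, which cannot go under 0.0286, was 0.114. The 95% intervals left out a 2-fold difference in either direction for 18 genes and included one for 9. The plot of differences by gene shows these intervals. In whole liver, fewer cells of a type and less RNA per cell cannot be told apart.

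**Figure D1:**
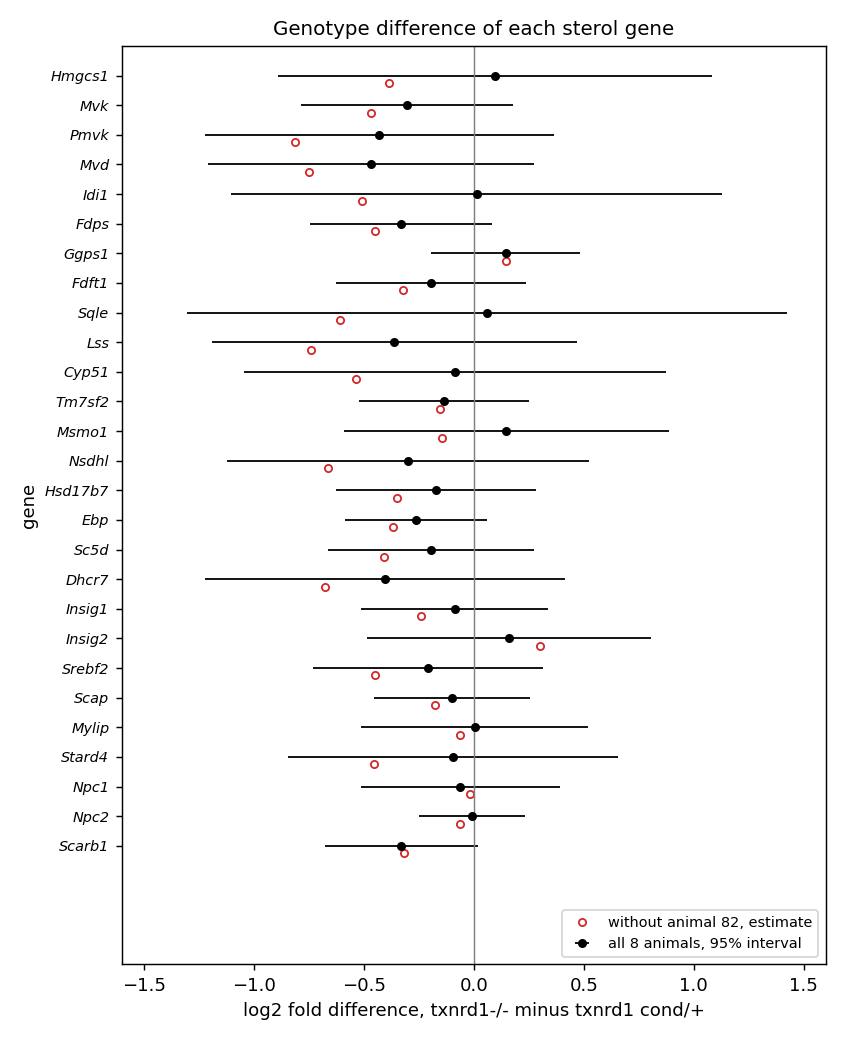
Log2 fold difference (txnrd1-/- minus txnrd1 cond/+, x axis) of each of the 27 sterol genes, with 4 animals per genotype. Black points with bars are limma estimates with 95% intervals, all of which include 0, and open red circles are the estimates without animal 82, 25 of 27 of which are below 0. Animal 82 was the lowest control for 21 of the 27 genes.

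The larger differences in the sterol genes lay between animals of one genotype. Over the 18 enzymes measured, the median ratio was 1.28, 1.26, 1.02 and 0.607 in control animals 70, 71, 80 and 82, and 1.12, 0.892, 0.932 and 0.672 in txnrd1-/- animals 69, 72, 73 and 81. Animal 82 was the lowest control and animal 81 the lowest txnrd1-/- liver, and the genotypes overlapped. Of the 18 enzymes, 2, 1, 9 and 17 were below 1 in controls 70, 71, 80 and 82. In txnrd1-/- animals 69, 72, 73 and 81 the counts were 1, 13, 13 and 17. The enzymes were thus split in animal 80, and no correlation between genes was computed. Animal 82 was the lowest control for 16 of 18 enzymes, against 30.1% of all genes, and animal 81 the lowest txnrd1-/- liver for 14, against 23.9%. Both held for 14 of 18 enzymes and 3 of 9 regulators and carriers, against 6.9% of all genes. Animals 81 and 82 were singled out after the values were seen, and no test was made of these shares. The heat map by animal shows both columns.

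**Figure D2:**
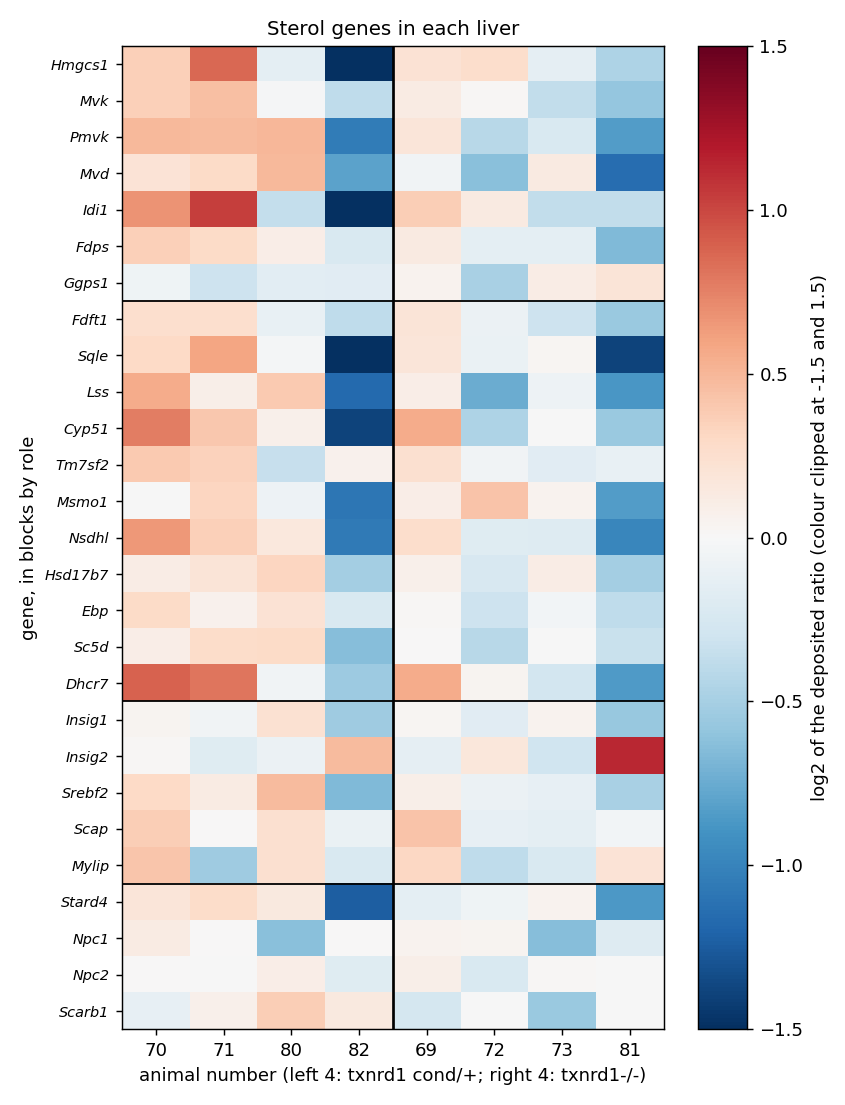
Log2 of the deposited ratio (colour, blue low and red high) of 27 sterol genes (rows, in blocks of mevalonate and isoprenoid steps, squalene and later steps, sterol sensing, and transport) in 8 livers (columns; 4 txnrd1 cond/+ left, 4 txnrd1-/- right). Columns 82 and 81 are blue for most enzymes, and Insig2 is red in both.

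The pooled SD between animals of one genotype had a median of 0.58 on the log2 scale over the 18 enzymes, 0.33 over the 9 regulators and carriers, and 0.20 over all genes. It was above the median of all genes in 18 of 18 enzymes and above the 90th percentile (0.38) in 10 of them. Sqle (1.09), Idi1 (0.89), Hmgcs1 (0.78) and Cyp51 (0.76) had the largest SDs, each above the 99th percentile of all genes, and Npc2 the smallest (0.13).

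**Figure D3:**
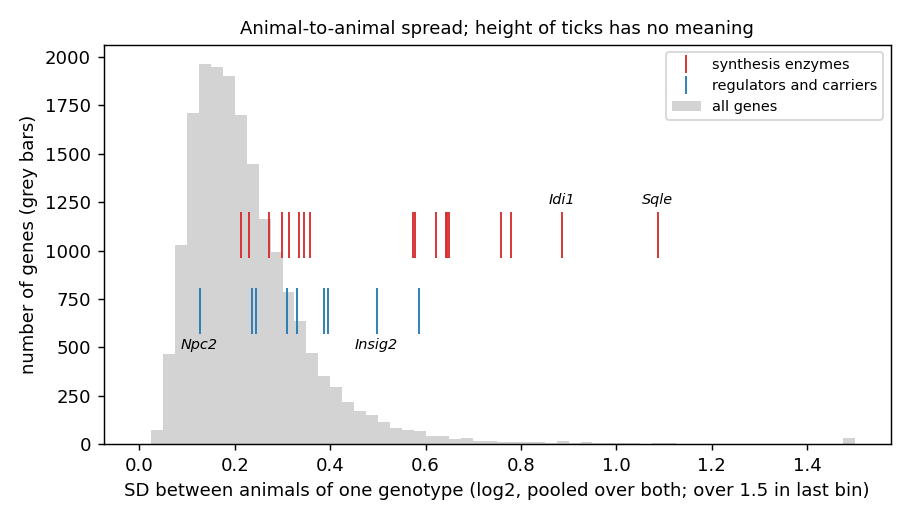
Within-genotype SD on the log2 scale (x axis) of all 18193 genes (grey bars, number of genes), of the 18 sterol synthesis enzymes (red ticks) and of the 9 regulators and carriers (blue ticks). All red ticks lie above the array-wide median of 0.20, with Sqle at 1.09.

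Of the 7 genes of the mevalonate and isoprenoid steps, 0 reached an unadjusted p of at most 0.05, 4 had estimates below 0, and the median log2 fold change was -0.30. Hmgcs1, which condenses acetoacetyl-CoA with acetyl-CoA to HMG-CoA, was 1.28, 1.82, 0.901 and 0.336 in controls 70, 71, 80 and 82. It was 1.16, 1.20, 0.913 and 0.726 in txnrd1-/- animals 69, 72, 73 and 81. The control livers thus spanned 5.42-fold and enclosed all of the txnrd1-/- livers, and the log2 fold change was 0.10 ± 0.44 (SE, n = 4 and 4). Idi1, the isomerase that makes dimethylallyl pyrophosphate, was 1.59, 2.05, 0.784 and 0.322 in the controls and 1.29, 1.10, 0.774 and 0.774 in txnrd1-/- livers, in the same order of animals. Its control range was 6.37-fold and again took in every txnrd1-/- liver, with a log2 fold change of 0.01 ± 0.50.

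Pmvk, which phosphorylates mevalonate phosphate, was 1.41, 1.39, 1.41 and 0.482 in the controls and 1.13, 0.749, 0.851 and 0.558 in txnrd1-/- livers. Values of controls 70, 71 and 80 lay within a narrow band above every txnrd1-/- liver, and the remaining control, animal 82, lay below all of them. Its log2 fold change was -0.43 ± 0.36. Mvd, the decarboxylase that yields isopentenyl pyrophosphate, was 1.15, 1.23, 1.40 and 0.572 in the controls and 0.962, 0.647, 1.10 and 0.455 in txnrd1-/- livers, a log2 fold change of -0.47 ± 0.33, the largest estimate of the 27 genes. Here too animals 82 and 81 were the lowest of their groups.

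Fdps, the farnesyl pyrophosphate synthase, was 1.28, 1.22, 1.07 and 0.857 in the controls and 1.10, 0.902, 0.904 and 0.632 in txnrd1-/- livers (log2 fold change -0.33 ± 0.19). Mvk, the mevalonate kinase, ranged from 0.765 to 1.36 in the controls and from 0.667 to 1.09 in txnrd1-/- livers (-0.30 ± 0.22). Ggps1, which extends farnesyl to geranylgeranyl pyrophosphate and so leaves the sterol branch, did not follow the others. Its lowest animals were 71 and 72, it spanned 1.601-fold over all livers, and its log2 fold change was 0.14 ± 0.15.

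Among the 11 genes from squalene to cholesterol, again 0 reached an unadjusted p of at most 0.05, 9 had estimates below 0, and the median was -0.19. Sqle, the squalene epoxidase, which sets the pace of the later steps, was 1.23, 1.502, 0.979 and 0.192 in controls 70, 71, 80 and 82. In txnrd1-/- animals 69, 72, 73 and 81 it was 1.14, 0.932, 1.02 and 0.382. Its range over all animals, 7.82-fold, was the widest of the 27 genes, while its log2 fold change was 0.06 ± 0.61. Cyp51, the lanosterol demethylase, was 1.70, 1.32, 1.05 and 0.382 in the controls and 1.47, 0.725, 0.993 and 0.678 in txnrd1-/- livers (-0.08 ± 0.43). For both enzymes the genotypes overlapped almost wholly.

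Lss, the lanosterol synthase, was 1.47, 1.06, 1.31 and 0.444 in the controls and 1.08, 0.598, 0.951 and 0.547 in txnrd1-/- livers (log2 fold change -0.36 ± 0.37). Dhcr7, which reduces 7-dehydrocholesterol to cholesterol, was 1.85, 1.74, 0.968 and 0.685 in the controls and 1.47, 1.03, 0.828 and 0.554 in txnrd1-/- livers (-0.40 ± 0.37). In Dhcr7 the controls fell into a high pair and a low pair, and every txnrd1-/- liver lay below the high pair. Nsdhl, a dehydrogenase of the demethylation complex, spanned 3.27-fold, and Msmo1, the methylsterol oxidase of the same complex, 2.86-fold; animals 82 and 81 were the lowest of their groups in both. The other 5 genes of these steps (Fdft1, Tm7sf2, Hsd17b7, Ebp and Sc5d) spanned 1.58- to 1.90-fold. Of these, Ebp, the sterol isomerase, had the lowest p, 0.102 from limma (-0.26 ± 0.14), and Tm7sf2, a sterol reductase, was lowest in animals 80 and 73.

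The regulators ran less uniformly. Srebf2 was 1.24, 1.09, 1.38 and 0.630 in controls 70, 71, 80 and 82 and 1.06, 0.940, 0.920 and 0.714 in txnrd1-/- animals 69, 72, 73 and 81 (log2 fold change -0.21 ± 0.23). As in most enzymes, animals 82 and 81 were the lowest of their groups. Insig1, itself a target of SREBP-2, was lowest in the same animals (0.689 and 0.676, against 0.887 to 1.18 in the others). Insig2, which is not driven by SREBP-2 in the same way and whose main liver transcript is repressed by insulin, was 1.01, 0.879, 0.944 and 1.39 in the controls and 0.909, 1.13, 0.816 and 2.19 in txnrd1-/- livers. It was therefore highest in animals 82 and 81, the only one of the 27 genes to be highest in both, against 7.53% of all genes, and its log2 fold change was 0.16 ± 0.29. Scap (0.904 to 1.35 over all livers) and Mylip, the ligase that degrades lipoprotein receptors (0.689 to 1.34), had log2 fold changes of -0.10 ± 0.16 and 0.00 ± 0.23.

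Of the 4 carriers and acceptors measured, all had estimates below 0, and 0 had an unadjusted p of 0.05 or less. Stard4, a soluble sterol carrier and SREBP-2 target, was 1.13, 1.21, 1.11 and 0.424 in the controls and 0.905, 0.953, 1.04 and 0.552 in txnrd1-/- livers (-0.09 ± 0.34). It followed the enzymes, with single low animals in each group. Scarb1, the receptor for high-density lipoprotein, was 0.919, 1.05, 1.30 and 1.11 in the controls and 0.835, 0.993, 0.678 and 0.993 in txnrd1-/- livers. Its log2 fold change, -0.33 ± 0.15, had the lowest p of the 27 genes (p = 0.060 from limma; 0.114 by the exact permutation test), and animals 82 and 81 were not its lowest. Npc1 and Npc2, which pass cholesterol out of lysosomes, had log2 fold changes of -0.06 ± 0.20 and -0.01 ± 0.11.

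**Figure D4:**
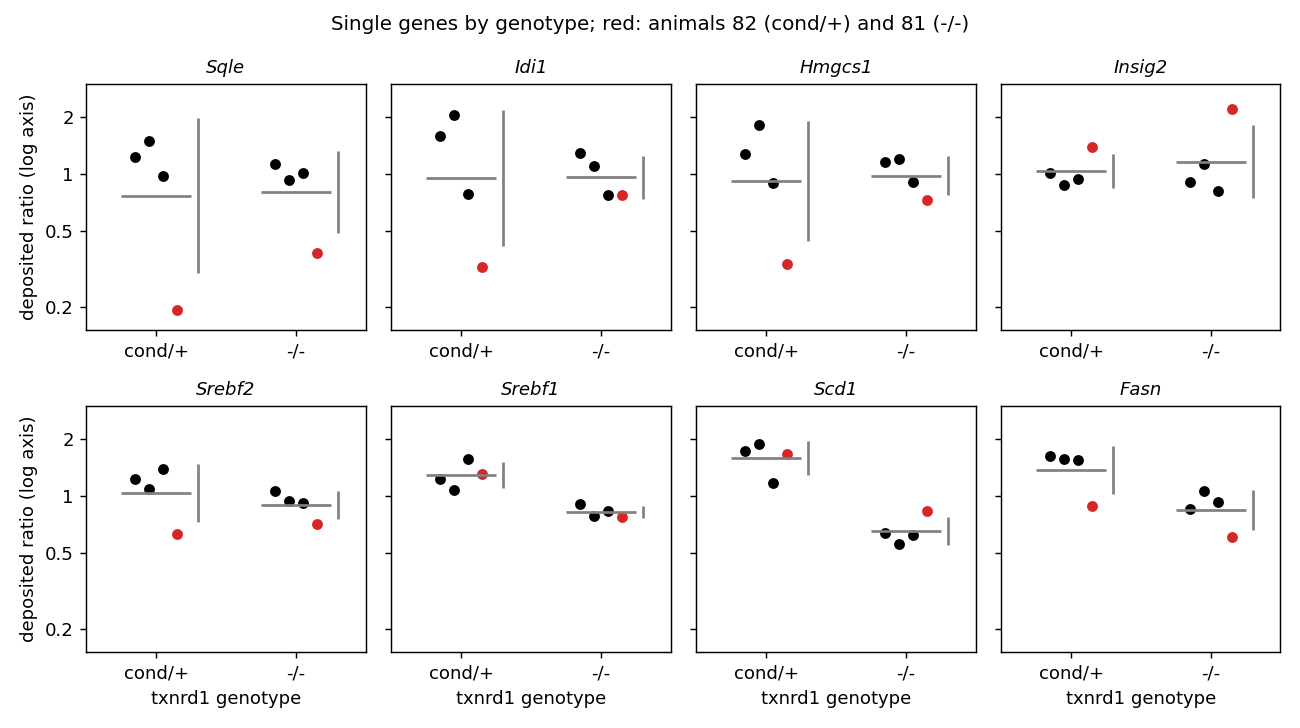
Deposited ratio (log axis) of 5 sterol genes and 3 fatty acid genes in 4 livers of each genotype; points are animals, red points animals 82 and 81, grey lines the geometric mean and, at the right of each group, 1 SD on the log2 scale. Sqle, Idi1 and Hmgcs1 overlap between genotypes with low red points, Insig2 has high red points, and Srebf1 and Scd1 separate the genotypes without overlap.

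Leaving out animal 82, the lowest control for 21 of the 27 genes, moved nearly all estimates down. For those 21 genes the fall follows from the choice of animal. The choice also takes the lowest value out of the spread between controls. The estimates and p-values without animal 82 are therefore no separate evidence of a genotype difference. With 3 controls against 4 txnrd1-/- livers, 25 of 27 estimates were below 0, the median log2 fold change was -0.38 over the 27 genes and -0.46 over the enzymes, and the median of all genes stayed at 0.00. Unadjusted p-values of at most 0.05 were then reached by 9 genes, all lower in txnrd1-/- livers, against 1.24% of all genes; these were Mvk, Pmvk, Mvd, Fdps, Lss, Nsdhl, Ebp, Sc5d and Srebf2. None passed adjustment over all genes (lowest adjusted p = 0.998 from limma, for Pmvk, with log2 fold change -0.81 ± 0.21). Leaving out animal 81 instead brought the median to -0.07, and 1 gene, Scarb1, passed an unadjusted p of 0.05 as lower, against 0.55% of all genes (log2 fold change -0.40). Without both animals, 6 genes (Pmvk, Mvd, Lss, Nsdhl, Sc5d and Srebf2) reached an unadjusted p of at most 0.05 as lower, against 0.868% of all genes, and the median was -0.25. Both choices were made after the values were seen. Because many of the enzymes shared their high and low animals, the genes in these counts are not separate observations.

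Animal numbers and the hybridization controls were the measures by which arrays could be grouped. Within animals 69 to 73 (2 controls, 3 txnrd1-/-) the median over the 27 genes was -0.32, and within animals 80 to 82 (2 controls, 1 txnrd1-/-) it was -0.27. The spiked BioB, BioC and BioD controls were high on arrays 70, 80, 69 and 73 and low on 71, 82, 72 and 81, so that each side held 2 animals of each genotype. The median was -0.18 within the high side and -0.08 within the low side. All 4 values were below 0, but the 2 groupings divide the same animals, so the 4 values are not independent of each other. The value within animals 80 to 82 rests on 1 txnrd1-/- liver, animal 81. With so few animals no test was made. The spread of an array, as the root mean square of its log2 ratios over all genes, was 0.18 to 0.34 and was highest in animal 82. Log2 differences between 3′ and 5′ probe sets of actin, a measure of RNA integrity, were 0.03 in animal 82 and -0.23 in animal 81, against -0.17 to 0.09 in the others. For Gapdh they were 0.04 in animal 82 and -0.10 in animal 81, against -0.04 to 0.13 in the others. As differences of ratios, both show only how an array stands relative to the other arrays.

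The median of the stellate cell markers was low in both of these animals, and medians of other cell types were not low in both. The medians of 7 stellate cell markers were 0.761 in animal 82 and 0.800 in animal 81, against 0.938 to 1.18 in the other 6. Of the 7 markers, 3 were lowest of their genotype in both animals, against 6.9% of all genes. Single stellate markers reached 1.33 in animal 82 and 1.16 in animal 81. Medians of 7 endothelial and 7 Kupffer cell markers were 0.859 and 0.873 in animal 82 and 0.996 and 1.04 in animal 81, while their lowest txnrd1-/- liver was animal 72 (0.823 and 0.737). Neutrophil markers were 1.02 and 0.690 in animals 82 and 81, cholangiocyte markers 1.02 and 0.871, and lymphocyte markers 0.993 and 1.07. Of the 9 hepatocyte markers, 2 were lowest of their genotype in both animals. Ass1, a urea cycle enzyme, was 0.536 in animal 82 and 0.247 in animal 81 against 0.796 to 1.71 in the other 6, and Cps1, of the same cycle, was 0.939 and 0.778 against 0.982 to 1.12. Tat, a tyrosine aminotransferase, was 0.991 and 0.513 against 0.771 to 1.35. In each of these lists, and among the hepatocyte markers, 0 genes reached an unadjusted p of at most 0.05 between genotypes. The part of other cell types in the sterol values was not tested, nor was that of the male- and female-typical genes.

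The fatty acid arm of the SREBP family was set beside the sterol arm. SREBP-1, from Srebf1, chiefly drives fatty acid synthesis, and 14 of 14 genes of this arm were measured. Of these 7 reached an unadjusted p of at most 0.05, 6 as lower (0.605% of all genes) and 1 as higher (1.71%) in txnrd1-/- livers, and the median log2 fold change was -0.34. Scd1, the stearoyl-CoA desaturase, was 1.72, 1.88, 1.17 and 1.67 in controls 70, 71, 80 and 82 and 0.639, 0.557, 0.623 and 0.835 in txnrd1-/- animals 69, 72, 73 and 81. It was the single called gene of the arm (log2 fold change -1.27 ± 0.17, adjusted p = 0.041 from limma), and its groups did not overlap; the call was lost on leaving out any single animal but 80 (0 genes called). Its log2 fold change was -1.25 without animal 82, -1.39 without animal 81 and -1.36 without both. Srebf1 itself was 1.23, 1.08, 1.57 and 1.31 in the controls and 0.913, 0.784, 0.834 and 0.780 in txnrd1-/- livers (-0.64 ± 0.13, adjusted p = 0.35). Animal 82 was thus not the lowest control for Srebf1 or Scd1, as it was for Srebf2 and Sqle.

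Fasn, the fatty acid synthase, was 1.63, 1.56, 1.55 and 0.886 in the controls and 0.856, 1.07, 0.929 and 0.605 in txnrd1-/- livers (-0.69 ± 0.23). Acaca, Elovl5 and Fads2 had log2 fold changes of -0.33 ± 0.12, -0.43 ± 0.14 and -0.70 ± 0.27, and Me1, the cytosolic malic enzyme that makes NADPH, 0.69 ± 0.23. In this arm animals 82 and 81 were both the lowest of their groups for 6 of 14 genes, against 6.9% of all genes. Without animal 82 the median log2 fold change was -0.43 in this arm and -0.46 over the sterol enzymes, and 8 of 14 and 8 of 18 genes had an unadjusted p of at most 0.05 as lower, against 1.24% of all genes. Animal 82 was the lowest control for 8 of these 14 and 16 of these 18 genes, so these shifts follow in part from the choice of animal. The difference between the arms was not tested, and the low values of the fatty acid genes were among the results known when the lists were drawn up.

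**Figure D5:**
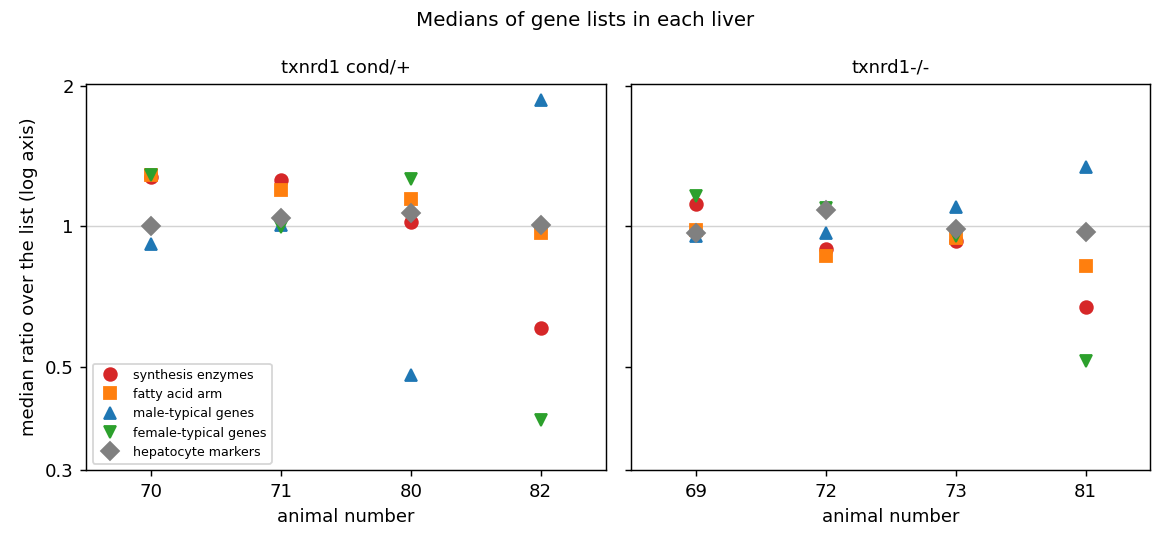
Median deposited ratio over each gene list (log axis) in each liver, by animal number and genotype. In animals 82 and 81 the 18 synthesis enzymes (red circles, 0.607 and 0.672) and 21 female-typical genes (green) were low and the 19 male-typical genes (blue) high, while the median of 9 hepatocyte markers (grey) lay between 0.966 and 1.08 in all animals. The male-typical median was lowest, 0.48, in control animal 80.

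The remaining lists around the pathway showed few differences. Of 10 genes measured for SREBP processing and sterol-regulated degradation, 1 reached an unadjusted p of at most 0.05 (Pgrmc1, a membrane haem protein that binds Insig1, log2 fold change 0.34 ± 0.12), with a median of 0.15. Oxysterol receptors and sterol exporters gave 1 of 7 (Abcg8, a subunit of the canalicular sterol exporter, 0.42 ± 0.17; median -0.07), and other branches of the isoprenoid pathway gave 1 of 15 (Coq7, a hydroxylase of ubiquinone synthesis, 0.47 ± 0.12; median 0.05). These 3 were higher in txnrd1-/- livers, against 1.71% of all genes, and none passed adjustment over all genes. Coq7 and Pgrmc1 did not overlap between genotypes, against 1.13% of all genes as higher. Electron donors and further sterol enzymes gave 0 of 5, with Lbr (-0.22 ± 0.33) and Cyb5a (0.17 ± 0.10) the largest, and intracellular carriers and ester hydrolases 0 of 12, with Lcat (-0.18 ± 0.13) and Scp2 (-0.15 ± 0.23) the largest. Animals 82 and 81 were both the lowest of their groups for 1, 0, 0, 1 and 0 genes of these 5 lists, against 6.9% of all genes.

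Probe sets of one gene did not always run together. Of 18 genes with over 1 probe set, 4 held probe sets whose estimates differed in sign by over 0.3 on the log2 scale; values are given in the order of controls 70, 71, 80 and 82 and then txnrd1-/- animals 69, 72, 73 and 81. In Hmgcs1, 1433443_a_at was 1.72, 1.98, 0.851 and 0.274 and then 1.53, 1.15, 0.846 and 0.599. Its 1433444_at was 1.18, 1.497, 0.764 and 0.248 and then 1.06, 1.02, 0.714 and 0.989. These and the next pair were lowest in animal 82 of all livers and spanned 5.18- to 7.21-fold. For 1433445_x_at the values were 1.39, 1.71, 0.849 and 0.304 and then 1.22, 1.15, 0.824 and 0.710. For 1433446_at they were 1.70, 1.94, 0.898 and 0.375 and then 1.35, 1.10, 0.781 and 0.629. The last, 1441536_at, was 0.707, 2.03, 1.20 and 0.553 and then 0.797, 1.66, 1.63 and 0.763. It had animals 70, 81 and 69 next above animal 82, and log2 fold changes of the 5 were -0.15 to 0.30. In Idi1, 1423804_a_at was 1.37, 2.11, 0.701 and 0.216 and then 1.17, 1.13, 0.648 and 0.875. Its 1451122_at was 1.85, 1.98, 0.876 and 0.479 and then 1.43, 1.07, 0.924 and 0.685. Animal 82 was lowest in both.

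Fdft1, squalene synthase, was read by 4 probe sets. Its 1438322_x_at was 1.45, 1.14, 1.22 and 0.393 and then 1.22, 0.651, 0.860 and 0.567, in the same order of animals. Its 1448130_at was 1.43, 1.41, 1.10 and 0.672 and then 1.20, 0.905, 0.759 and 0.502. Both were lowest of their genotype in animals 82 and 81, with log2 fold changes of -0.26 and -0.46. By contrast 1438918_at was 1.05, 1.04, 0.777 and 1.22 and then 0.948, 1.28, 0.827 and 0.826. Likewise 1438919_x_at was 0.937, 1.22, 0.707 and 1.09 and then 1.21, 1.06, 0.783 and 0.908. In this pair animal 80 was the lowest control, animal 82 was above 1, and log2 fold changes were -0.08 and 0.01.

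Hsd17b7, a ketoreductase of the demethylation complex, also had 4 probe sets. Of these 1417871_at was 1.00, 1.40, 1.74 and 0.613 and then 0.980, 0.644, 1.24 and 0.734. Next, 1448865_at was 1.09, 0.989, 1.35 and 0.490 and then 1.00, 0.723, 1.02 and 0.697. Also, 1457248_x_at was 1.38, 1.25, 1.03 and 0.786 and then 1.32, 0.916, 0.967 and 0.537. These 3 spanned 2.58- to 2.84-fold, with animal 82 the lowest control. The fourth, 1440057_at, was 0.898, 0.988, 1.01 and 1.03 and then 0.947, 1.19, 1.13 and 0.888. It spanned 1.34-fold, with animal 82 the highest control. The mean over probe sets thus understates the range of the probe sets that vary. Tested apart, 0 of 62 probe sets were called and 2 had unadjusted p-values of 0.05 or less, against 1.82% of all probe sets: 1424709_at of Sc5d (-0.40 ± 0.15) and 1416050_a_at of Scarb1 (-0.36 ± 0.14), both lower in txnrd1-/- livers.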

How the data were processed

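Expression was measured in liver RNA of 8 mice, 4 per genotype, with an Affymetrix array for each. The authors deposited linear ratios: values are relative to roughly each probe set's own median across the arrays, and each array is centred near 1. The methods name GeneSpring, and the submitters' processing notes name RMA with no version. No signal remains in the ratios, so no signal filter was possible; 5 values are empty and stayed empty, and the controls (64 of 45101 probe sets) were left out. All columns were matched to samples by the labels.

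Names came from the platform annotation (34945 probe sets with 1 symbol, 932 with several, 9160 with none), and a gene is the mean log2 ratio of its probe sets with 1 symbol. The 18193 genes were compared with limma 3.58.1 in R 4.3.3 (lmFit and eBayes, 2-sided, Benjamini-Hochberg over all genes); genes past an adjusted p of 0.05 that differ by at least 1.5-fold are called. Errors after ± are limma's standard errors unless named SD. Single genes were also tested by exact permutation. No depth applies to arrays, and their number limits the precision.

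The genes and lists were chosen with earlier results of these data known. Given with every animal's value are the 6 genes with the largest differences and members whose probe sets disagree in sign by over 0.3 log2; Sqle, Cyp51, Srebf2, Insig2 and Stard4 were added after their values were seen, as were the male- and female-typical lists. Alternatives were other centring and normalization, other ways to combine probe sets, robust and weighted fits, covariates, a spread filter, permutation and leaving out animals. The code was tested on simulated data. Python 3.11.15 and matplotlib 3.10.9 made the figures.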

Additional observations from a re-analysis of the deposited data

Results flagged for a closer look

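In 4 animals of a genotype, 3 of 56 sets of values (27 genes and the enzyme median in each genotype) had 1 animal farther from the rest than Dixon's 95% limit; chance alone gives about 1 in 20. Pmvk was 0.482 in control animal 82, against 1.39 to 1.41 in the other controls. Stard4 was 0.424 in the same animal, against 1.11 to 1.21. Npc1 was 0.648 in control animal 80, against 1.00 to 1.09, and a txnrd1-/- liver, animal 73, had a similar value (0.644). Sqle in animal 82 (0.192) was lower than either of the first 2 but lay within the limit, because the other controls also varied.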

How the results depend on the processing

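No paired analysis was possible because the groups share no animal numbers. Under all 21 other fits 0 of the 27 genes were called, and so too with no fold minimum, by permutation and over single probe sets. Of 566 estimates of single genes under these fits 56 changed sign, in 11 genes whose estimates with all animals were at most 0.16 in size; 16 genes never changed sign. The number of sterol genes lower at an unadjusted p of at most 0.05 was 0 with all animals (0.605% of all genes). It was 9 without animal 82 (1.24% of all genes), 6 without animals 81 and 82 (0.868%), and 0 to 9 over the animals left out singly. Among animals 69 to 73 alone, a fit that also leaves out animals 81 and 82, it was 7. Fits without animal 82 leave out the lowest control of 21 of the 27 genes, so their counts are no separate evidence. It was 4 with the animal number range as a covariate, 1 with array weights and 1 with the hybridization controls as a covariate. It was 1 with the median of probe sets and 1 without the _s_at and _x_at probe sets. Where no share of all genes is given, the count cannot be judged against one. The number higher was 0 to 1. The median over the 27 genes was -0.38 to -0.05 over the animals left out, and -0.32 to -0.10 in the other fits. The number of genes called array-wide, 15, became 41 in the more variable part of the genes by SD and 8 with the animal number range. It was 6 among animals 69 to 73, 4 without animals 81 and 82, and 4 to 13 with single animals left out. Permutation gave 0, which follows from its smallest p as given above. In the fatty acid arm the 1 called gene, Scd1, was lost (0 called) with the animal number range, with the probe set of largest variance and without animals 81 and 82. The call was also lost in each fit with 1 animal left out except that without animal 80 (0 to 1). Its log2 fold change was -1.27 with all animals and -1.36 without animals 81 and 82. Permutation could not have called Scd1, for the same reason. Medians of small lists moved by more than the pooled SD, between animals of one genotype, of the list's median log2 ratio: SREBP processing to -0.0098 without animals 81 and 82; sterol efflux, over single animals left out, -0.081 to 0.0095; other isoprenoid branches to 0.18 and electron donors to -0.18 in the more variable genes, where fewer genes remain; carriers and hydrolases to -0.076 among animals 69 to 73 and -0.0678 to 0.079 over single animals left out. The cause of these moves was not tested. Ratios keep no signal over background, so dim probe sets could not be set aside.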

Other observations

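Cyp7a1, the rate-limiting enzyme by which cholesterol enters bile acids, followed the same animals as the sterol enzymes. It was 1.23, 1.06, 1.71 and 0.186 in controls 70, 71, 80 and 82 and 1.01, 0.905, 1.01 and 0.140 in txnrd1-/- animals 69, 72, 73 and 81. Cyp7b1, the male-typical oxysterol hydroxylase, ran the other way, at 2.10 in animal 82 and 2.42 in animal 81 against 0.357 to 1.02 in the others. Of 3 bile acid genes read as a list (Cyp7a1, Cyp8b1 and Cyp27a1), Cyp7a1 alone was lowest of its genotype in both animals. Cyp8b1 was highest of its genotype in both, at 0.851 in animal 82 and 1.93 in animal 81. Cyp27a1 was 1.05 and 0.991 in them. The organic anion transporter genes Slc22a26, Slc22a27 and Slc22a29, female-typical in liver, were 0.0919 to 0.209 in animal 82 and 0.0486 to 0.256 in animal 81, against 0.516 to 2.05 in the other 6. Control animal 80 lay at the opposite end: Hsd3b5 was 0.05 there, Slco1a1 0.0562 and Mup10 0.0371, each the lowest of the 8 livers, while the enzyme median of that animal was 1.02. These genes were picked after their values were seen, and no relation to the sterol genes was tested.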
